A study of Rattus norvegicus with 4 samples.

Results

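In all, 9 genes known as targets of the hypoxia-inducible factors (HIF) that act outside glycolysis were followed through 4 cultures of rat L6 skeletal myoblasts. They are Adm, Ankrd37, Bnip3, Bnip3l, Ddit4, Car9, Ero1a, Ak4 and Ndrg1, that is 9 of the 14217 genes that could be named on the array. Each gene is given as an average over those probe sets that carry no symbol but its own. All 9 were measured, by 13 probe sets in all, of which 5 genes had 1 and 4 genes had 2. The genes were chosen by their known role, but with the values of these 4 arrays in view, above all their level in L6-HGF sheets relative to L6-WT sheets, so their values are a description and not a test. The cultures were L6-WT, the unmodified line, and L6-HGF, the same line carrying human hgf from a retroviral vector, each grown as a monolayer and as a sheet, and each was hybridized to 1 Affymetrix rat array. The L6-HGF cells were selected with puromycin, and an empty-vector line is not described, so hHGF, vector and selection cannot be told apart. A sheet is a confluent layer of myoblasts plated at high density on a thermoreactive dish, from which it comes off whole. Neither the labels nor the study's methods give the oxygen level of the cultures.

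HIF is a transcription factor made of an oxygen-labile alpha subunit (Hif1a or Epas1) and the stable partner Arnt. When oxygen is plentiful, prolyl hydroxylases of the Egln family mark the alpha subunit, and the Vhl ubiquitin ligase then has it degraded, so that HIF activity is set at the protein and not mainly at the mRNA. When oxygen falls, the pair binds short hypoxia response elements with the core letters ACGTG or GCGTG and switches on genes for glucose use. It also switches on genes for the removal of mitochondria, for acid-base balance, for protein oxidation and for signals to blood vessels. Bnip3, Bnip3l, Car9, Ero1a and Adm belong to these last groups, while Ankrd37, Ddit4, Ak4 and Ndrg1 are targets outside them. Several of the 9 genes, such as Ddit4, also answer to other stress pathways.

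The start regions of the genes come first because they may hold the letters that HIF recognizes. RefSeq windows (build GRCr8) from 250 bases before to 50 bases after a gene's start were at hand for 6 of the 9 genes, and Bnip3l, Ero1a and Ndrg1 were not analysed in this way. The letters ACGTG and GCGTG were searched on both strands, so that the other strand reads CACGT and CACGC, and the palindrome CACGTG counts as 1 match on each strand. At least 1 match was found in 5 of the 6 windows, against 56.4% of the 13242 windows of genes on the array and 41.6% of all 33469 windows. Ankrd37 had 5 matches and Bnip3 had 4, while 3 or more were found in 13.1% of the windows of genes on the array. Ddit4 had 2, Car9 and Ak4 had 1 each, and Adm had none. In the stretches below, capitals mark the matched letters, and each stretch is given 5′ to 3′ on the strand of its gene. Ankrd37 and Bnip3 are shown for their many matches, Car9 for a match within the first bases of the gene, and Adm as a gene with large differences and no match in its window.
Ankrd37, chr16:53001257-53001511, + strand: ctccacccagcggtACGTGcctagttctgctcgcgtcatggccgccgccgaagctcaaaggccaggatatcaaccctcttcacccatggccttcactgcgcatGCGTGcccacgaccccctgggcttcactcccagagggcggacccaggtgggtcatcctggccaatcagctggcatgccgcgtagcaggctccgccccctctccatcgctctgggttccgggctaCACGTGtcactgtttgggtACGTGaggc
Bnip3, chr1:203154963-203155112, - strand: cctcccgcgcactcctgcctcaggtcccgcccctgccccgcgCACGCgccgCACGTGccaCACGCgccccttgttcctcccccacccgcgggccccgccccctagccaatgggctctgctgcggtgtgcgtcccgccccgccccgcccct
Car9, chr5:62558974-62559053, + strand: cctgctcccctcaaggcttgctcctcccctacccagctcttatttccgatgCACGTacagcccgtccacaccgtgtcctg
Adm, chr1:174180050-174180199, + strand: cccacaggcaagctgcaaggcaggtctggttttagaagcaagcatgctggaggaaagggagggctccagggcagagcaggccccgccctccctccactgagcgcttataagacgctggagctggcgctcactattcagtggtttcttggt
A match is a run of letters only, and neither HIF binding nor the promoter used by the L6 cells was measured.

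The 9 genes were higher in sheets than in monolayers in both cell lines, and 8 of them were highest in the L6-HGF sheet. Deposited values are on the log2 scale with the median of the 4 arrays at 0 for each probe set, so they give the order and distance of the arrays for a gene but no signal level, and no gene can be ranked by abundance. This centring also makes the middle values of a probe set equal in size and opposite in sign. For all 9 genes both sheets lay above both monolayers, a pattern shown by 30.1% of all genes, and for 8 of them the L6-HGF sheet was the highest array, as for 26.9% of all genes. Both held for these 8 genes and for 15.0% of all genes. The exception was Ndrg1, for which the sheets were nearly equal and that of L6-WT was marginally the higher. For Ak4 the order is that of the mean of its 2 probe sets, and in 1 of them the L6-WT sheet was the lowest array. Per array, the median over the 9 genes was -0.77 in the L6-WT monolayer, -0.71 in the L6-HGF monolayer, 0.42 in the L6-WT sheet and 2.03 in the L6-HGF sheet. The lowest array was the L6-HGF monolayer for Ankrd37, Adm, Bnip3, Bnip3l and Ndrg1, and the L6-WT monolayer for the other 4 genes.

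**Figure D1:**
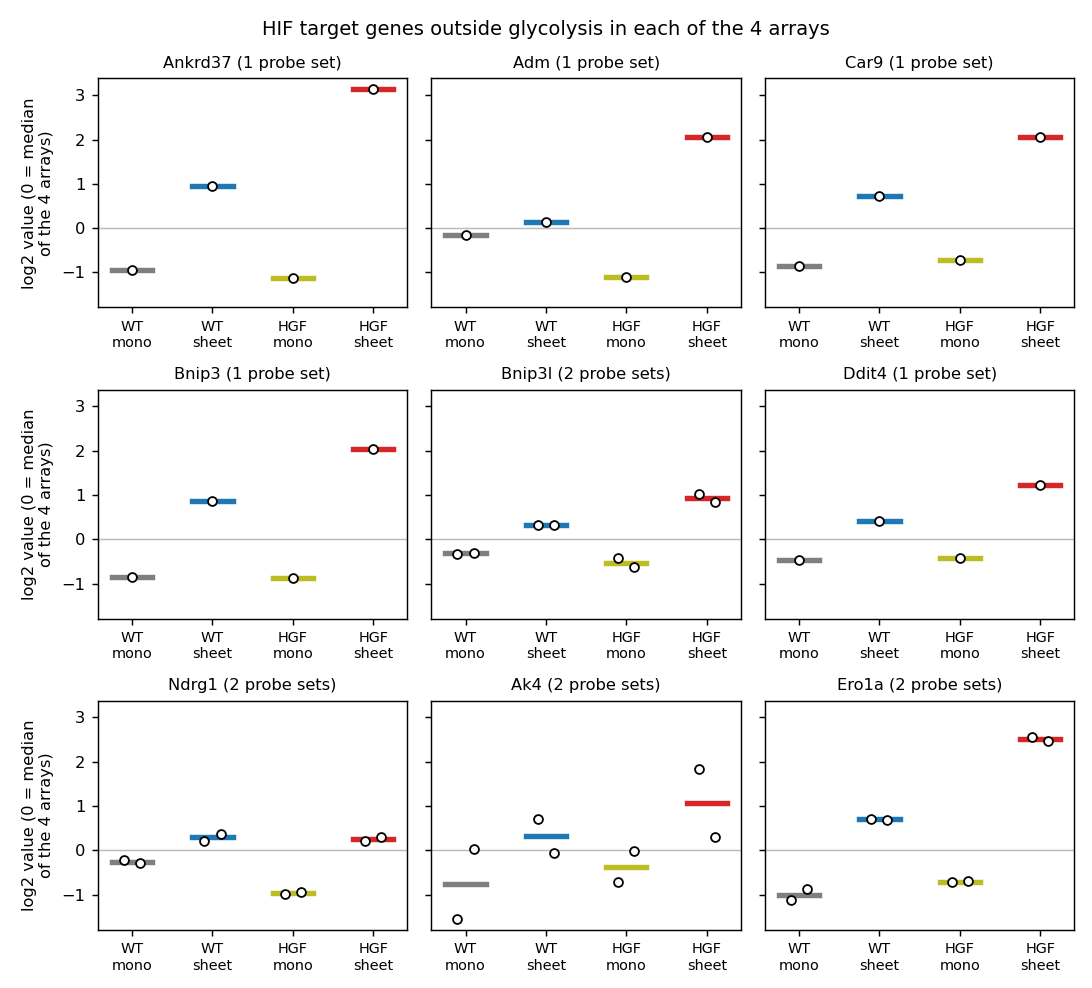
Log2 value (vertical axis, 0 = median of the 4 arrays of a probe set) of each of the 9 genes in the L6-WT monolayer, L6-WT sheet, L6-HGF monolayer and L6-HGF sheet, with 1 array per culture. Circles are probe sets and bars their mean; the L6-HGF sheet is highest in every panel but that of Ndrg1, and the 2 probe sets of Ak4 lie apart.

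Each culture was measured on 1 array, so differences could not be set against the spread between cultures. The only yardstick on the arrays is the 45 probe sets for bacterial transcripts, several of which measure the same transcript. Their log2 differences ranged from -0.18 to 0.35 between the monolayers, from -0.51 to 0.36 between the sheets, from -0.12 to 0.49 between formats in L6-WT and from -0.30 to 0.34 between formats in L6-HGF. These controls hold the error of labelling or hybridization and not the spread between cultures. Between sheets, the comparison behind the choice of the genes, 8 of the 9 lay above this range, as did 6.88% of all genes. Between formats, 8 of the 9 lay above it in L6-WT and 9 in L6-HGF, against 5.54% and 12.7% of all genes. Between monolayers, 5 genes lay within the range, 1 above it and 3 below it, against 5.72% of all genes above and 17.3% below.

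Among secreted signals, Adm encodes adrenomedullin, a peptide that widens blood vessels and acts on endothelium. Its value was -0.15 in the L6-WT monolayer, 0.15 in the L6-WT sheet, -1.10 in the L6-HGF monolayer and 2.05 in the L6-HGF sheet. The cell lines thus stood in opposite order in the 2 formats. Among sheets, Adm in L6-HGF exceeded that in L6-WT 3.74-fold, but among monolayers it was 1.93-fold lower in L6-HGF. From monolayer to sheet it was 8.86-fold higher in L6-HGF and 1.23-fold higher in L6-WT, and the latter lay within the range of the bacterial controls. The hHGF effect in sheets exceeded that in monolayers by 2.85 on the log2 scale, which was the largest of all 14217 genes, while Ankrd37 ranked 2. Both ranks rest in part on the difference between sheets, with which the genes were chosen. Of the 8 measured relatives and receptors of adrenomedullin on a list of 9, none passed 2-fold in any comparison. The receptor Calcrl and its partner Ramp2, named after their values were seen, were lower in the L6-HGF sheet than in the L6-HGF monolayer by -0.90 and -0.96 (log2). They were the 2 genes of this list below 0 in that comparison. The other 6 were above 0, the highest at 0.84, and the median of the list was 0.08.

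Ankrd37, an ankyrin repeat protein of poorly known function that is a sensitive HIF target, had the largest differences of the 9 genes between sheets and between formats in each line. It stood at -0.95 in the L6-WT monolayer, 0.95 in the L6-WT sheet, -1.13 in the L6-HGF monolayer and 3.14 in the L6-HGF sheet. The monolayers lay close together, the L6-WT sheet well above them and the L6-HGF sheet far above all. The sheet was 3.75-fold above the monolayer in L6-WT and 19.4-fold above it in L6-HGF. Between sheets, L6-HGF was 4.56-fold above L6-WT, whereas between monolayers it was 1.13-fold lower, within the range of the controls. Of all 14217 genes, Ankrd37 ranked 1 both in the difference between sheets and in that between formats in L6-HGF. Both ranks use the L6-HGF sheet array, whose level entered the choice of the genes.

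Bnip3 and Bnip3l (Nix) encode related proteins of the outer mitochondrial membrane that recruit the autophagy machinery to mitochondria. Bnip3 had values of -0.85 in the L6-WT monolayer, 0.85 in the L6-WT sheet, -0.88 in the L6-HGF monolayer and 2.03 in the L6-HGF sheet. The monolayers were alike within 0.03, and the sheets stood above them in steps. The sheet exceeded the monolayer 3.26-fold in L6-WT and 7.54-fold in L6-HGF, and L6-HGF sheets exceeded L6-WT sheets 2.26-fold. Bnip3l followed the same order at smaller distances, with -0.32, 0.32, -0.53 and 0.93 in the L6-WT monolayer, L6-WT sheet, L6-HGF monolayer and L6-HGF sheet. Its sheets were 1.55-fold above the monolayer in L6-WT and 2.75-fold above it in L6-HGF, and its 2 probe sets gave 0.70 and 0.53 (log2) for L6-HGF against L6-WT sheets. Of 15 other genes of mitophagy and autophagy measured, among them receptors and LC3 relatives, none passed 2-fold in any of the 4 comparisons. Their median was -0.01 between sheets and 0.06 between formats in L6-WT.

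Ddit4 (REDD1) restrains the growth kinase complex mTORC1 under stress. Its value was -0.47 in the L6-WT monolayer, 0.42 in the L6-WT sheet, -0.42 in the L6-HGF monolayer and 1.23 in the L6-HGF sheet. The lines thus coincided as monolayers and parted as sheets, where L6-HGF was 1.75-fold higher. From monolayer to sheet Ddit4 was 1.85-fold higher in L6-WT and 3.13-fold higher in L6-HGF. Of 16 measured genes of mTORC1 control and its brakes, 1 passed 2-fold, in the format comparisons. This was Txnip, a glucose-responsive inhibitor of glucose uptake, which was lower in sheets by -3.79 in L6-WT and -3.81 in L6-HGF (log2).

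Car9 encodes a carbonic anhydrase at the cell surface that helps hypoxic cells to export acid. It had -0.85 in the L6-WT monolayer, 0.71 in the L6-WT sheet, -0.71 in the L6-HGF monolayer and 2.05 in the L6-HGF sheet. The monolayers differed by 0.13 (log2), within the range of the controls. The sheets were 2.95-fold above the monolayer in L6-WT and 6.77-fold above it in L6-HGF, and the L6-HGF sheet was 2.52-fold above the L6-WT sheet. Of 18 other carbonic anhydrases and pH transport genes measured, none passed 2-fold between sheets, between monolayers or between formats in L6-WT. Between formats in L6-HGF the member past 2-fold was Bsg (basigin), the chaperone of lactate transporters, with 1.57 (log2).

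Ero1a oxidizes protein disulphide isomerase in the endoplasmic reticulum, the step that drives disulphide formation in secreted proteins. It stood at -0.996 in the L6-WT monolayer, 0.70 in the L6-WT sheet, -0.70 in the L6-HGF monolayer and 2.51 in the L6-HGF sheet. Sheets exceeded monolayers 3.25-fold in L6-WT and 9.29-fold in L6-HGF, and L6-HGF sheets exceeded L6-WT sheets 3.50-fold. Its 2 probe sets were close, with 1.85 and 1.77 (log2) between sheets. The other 12 measured genes of oxidative folding, which include several disulphide isomerases, all stayed within 2-fold in the 4 comparisons, with a median of -0.13 between sheets.

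Ak4 is an adenylate kinase of the mitochondrial matrix, and its probe sets gave different pictures. The first had -1.56 in the L6-WT monolayer, 0.72 in the L6-WT sheet, -0.72 in the L6-HGF monolayer and 1.84 in the L6-HGF sheet. The second ran between -0.06 and 0.30 over the 4 arrays, with the L6-WT sheet lowest. The mean of both, with 1.10 (log2) between formats in L6-WT and 0.74 between sheets, therefore lies between a probe set with large differences and another with small ones, and which of them measures the Ak4 transcript was not tested. By the first probe set, the Ak4 value of the L6-HGF monolayer also exceeded that of the L6-WT monolayer, by 0.84 (log2). The 3 other adenylate kinases measured lay within 2-fold throughout.

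Ndrg1, a gene linked to differentiation and stress, departed from the rest. Its value was -0.25 in the L6-WT monolayer, 0.29 in the L6-WT sheet, -0.96 in the L6-HGF monolayer and 0.26 in the L6-HGF sheet. The sheets were alike, with a difference of -0.04 (log2), which its probe sets put at 0.0050 and -0.08, and the L6-HGF monolayer stood low, at 1.63-fold below the L6-WT monolayer. Sheets exceeded monolayers 1.46-fold in L6-WT and 2.32-fold in L6-HGF. Both probe sets gave this order of the monolayers, with -0.78 and -0.63 (log2), and the 3 other NDRG genes lay within 2-fold throughout.

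Between L6-HGF and L6-WT sheets, 5 of the 9 genes were more than 2-fold higher (Ankrd37, Adm, Ero1a, Car9 and Bnip3) and none was lower, against 0.492% of all genes higher and 0.95% lower. This is the comparison with which the genes were proposed, so nothing is read from the count. The median log2 difference was 1.18, with a range from -0.04 to 2.19, against a median of -0.02 over all genes. Between monolayers, none of the 9 passed 2-fold, against 0.225% of all genes higher and 0.309% lower, and the median was -0.03. There 4 genes were above 0 and 5 below, from Adm at -0.95 to Ak4 at 0.40, and 50.4% of all genes were above 0. After quantile normalization, Car9 and Bnip3 lay within 2-fold between sheets, at 0.67 and 0.50 (log2), so that 3 genes remained past it.

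**Figure D2:**
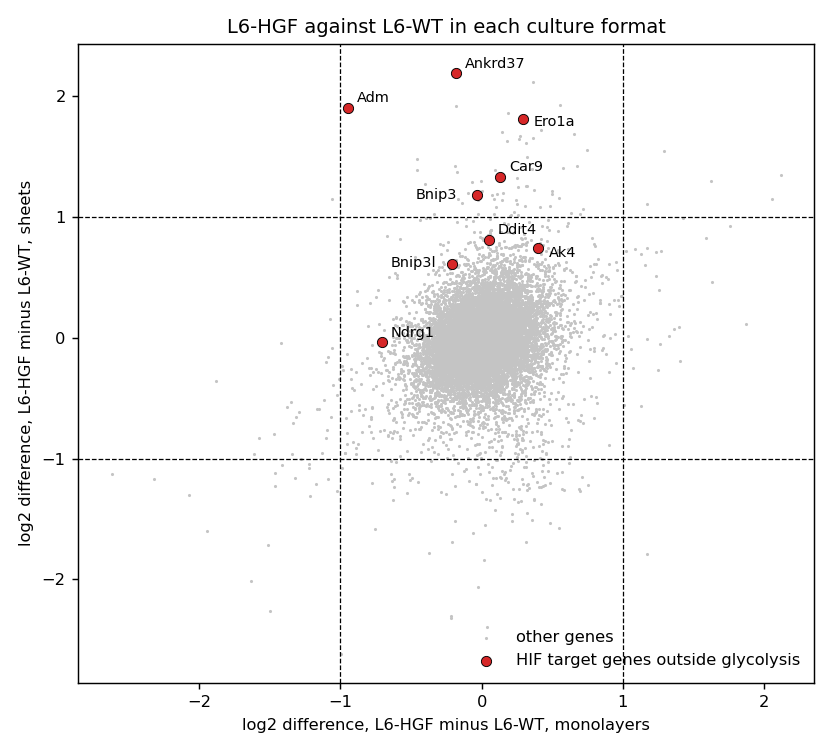
L6-HGF minus L6-WT on the log2 scale, with the monolayers on the horizontal axis and the sheets on the vertical axis, for 14217 genes, 1 point per gene from 1 array per culture, with dashed lines at 2-fold and the 9 genes in red. Ankrd37, Adm, Ero1a, Car9 and Bnip3 lie above the 2-fold line for sheets, none of the 9 lies past 2-fold for monolayers, and Adm and Ndrg1 lie to the left.

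Between the L6-WT sheet and the L6-WT monolayer, a comparison without any L6-HGF array, 5 of the 9 genes were more than 2-fold higher in the sheet and none was lower, against 0.717% of all genes higher and 0.492% lower. These were Ankrd37, Bnip3, Ero1a, Car9 and Ak4. Ak4 is counted by the mean of its 2 probe sets, which gave 2.27 and -0.08 (log2) in L6-WT and 2.56 and 0.32 in L6-HGF. In L6-WT all 9 genes were above 0, as were 54.2% of all genes. They ran from Adm at 0.30 to Ankrd37 at 1.91 (log2), and the median was 1.10 against 0.03 over all genes. In L6-HGF all 9 were more than 2-fold higher in the sheet, against 1.17% of all genes higher and 2.57% lower, from Ndrg1 at 1.22 to Ankrd37 at 4.28, with a median of 2.76. The L6-HGF sheet array enters both this comparison and that between sheets, and the L6-WT sheet array enters the comparison between sheets and that between formats in L6-WT, so these counts do not stand apart from each other. The hHGF effect in sheets is the comparison with which the genes were proposed, so nothing is read from the counts of its excess over monolayers. The hHGF effect was larger in sheets than in monolayers for all 9 genes, as for 47.5% of all genes. The excess had a median of 1.20 and a range from 0.34 (Ak4) to 2.85 (log2). It was more than 1 for 5 of them, against 0.471% of all genes above 1 and 1.43% below -1. After quantile normalization this median was 0.64, Ak4 stood at -0.07, and 2 genes exceeded 1, Ankrd37 and Adm, the latter with 2.36, against 0.324% of all genes. With the bacterial controls set to a mean of 0, the L6-WT format difference of every gene became smaller by 0.20 (log2), and Ak4 came to 0.90.

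**Figure D3:**
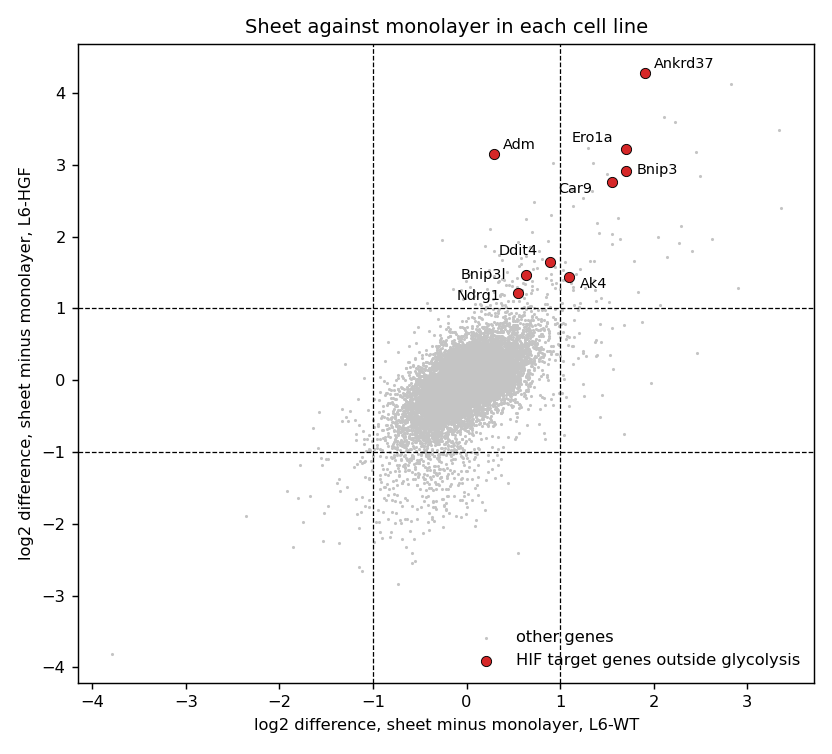
Log2 difference between sheet and monolayer in L6-WT (horizontal axis) and in L6-HGF (vertical axis) for 14217 genes, 1 point per gene from 1 array per culture, with dashed lines at 2-fold and the 9 genes in red. All 9 lie above the 2-fold line for L6-HGF and to the right of 0 for L6-WT, and Adm combines 3.15 in L6-HGF with 0.30 in L6-WT.

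In limma, fitted over 31042 probe sets and all 4 arrays with terms for format and cells and 1 residual degree of freedom, no probe set passed an adjusted p of 0.05 for the format term (0% of probe sets in either direction), and the smallest adjusted p was 0.102. At an unadjusted p under 0.05, 2753 probe sets (8.87%) were higher and 3580 lower in sheets. None of the 13 probe sets of the 9 genes passed, with limma adjusted p values from 0.158 to 0.677, and 11 of them had an unadjusted p under 0.05. The genes were chosen with these arrays in view, and the L6-HGF sheet array enters the format term. Nothing is therefore read from this count, and the p values of the 9 genes are descriptions only. For Bnip3 the format effect was 2.31 with an SE of 0.32 (log2, limma adjusted p = 0.158), and for Ankrd37 it was 3.09 with an SE of 0.61 (limma adjusted p = 0.167). The residual of this model is the amount by which the hHGF effect in sheets departs from that in monolayers, so a gene whose format effect is unlike in the 2 lines, such as Adm (1.72 with an SE of 0.73, limma adjusted p = 0.295), has a large error by construction. An exact two-sided permutation test of 2 sheets against 2 monolayers cannot go below a p of 0.333.

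Other HIF targets outside glycolysis had differences of the same sign in most cases, with smaller medians. Of 37 measured, 28 were above 0 between sheets and 25 between formats in L6-WT, against 46.2% and 54.2% of all genes. Of 37 measured on a list of 40, 7 were more than 2-fold higher and 1 lower in L6-HGF than in L6-WT sheets, with a median of 0.41 (log2), and 3 were higher and none lower between formats in L6-WT, with a median of 0.28. In L6-HGF, 18 were more than 2-fold higher and 1 lower in the sheet. Of all genes, 0.492% were more than 2-fold higher and 0.95% lower between sheets. Between formats, these shares were 0.717% and 0.492% in L6-WT and 1.17% and 2.57% in L6-HGF. Hilpda, a lipid droplet protein, had the largest difference between sheets on this list, 1.64 (log2), with -0.88 in the L6-WT monolayer, 0.62 in the L6-WT sheet, -0.62 in the L6-HGF monolayer and 2.26 in the L6-HGF sheet. Vegfa, the vascular growth factor, differed by 1.15 between sheets and by 1.05 between formats in L6-WT. Higd1a, a mitochondrial protein of the hypoxic response, differed by 1.40 between formats in L6-WT and by 0.41 between sheets. Plod2, a lysyl hydroxylase of collagen, resembled Adm, with -1.06 (log2) between monolayers and 1.14 between sheets. The collagen prolyl hydroxylase subunit P4ha1 had -0.40 and 1.27, haem oxygenase Hmox1 -0.34 and 1.02, and the circadian repressor Bhlhe40 -0.03 and 1.14. Insig2, which retains sterol sensors in the endoplasmic reticulum, completed the 7, with 1.19 between sheets. The gene more than 2-fold lower was Selenbp1, at -1.03.

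Of 19 genes of glycolysis and glucose uptake measured on a list of 21, 6 were more than 2-fold higher between sheets and 6 between formats in L6-WT, with medians of 0.47 and 0.60 (log2) and none lower. Of all genes, 0.492% and 0.717% were more than 2-fold higher in these comparisons. Unlike the 9 genes, this list had a positive median between monolayers, 0.29, with 15 of 19 genes above 0, against 50.4% of all genes. As means over probe sets, the mRNAs of the HIF subunits themselves stayed within 2-fold between cultures. Hif1a differed by 0.31 between sheets and 0.13 between formats in L6-WT, Epas1 by -0.16 and 0.15, and Arnt by 0.08 and -0.46. Hif3a differed by -0.16 and 0.11, and Arnt2 by -0.11 and -0.40. The 2 probe sets of Arnt2 disagreed between formats, with 0.21 and -1.02 in L6-WT and 0.15 and -0.97 in L6-HGF. Of the hydroxylases, which include known HIF targets, Egln3 differed by -0.10 between sheets and Egln2 by -0.29, while Egln1 differed by 0.47. Egln1 also had 0.56 between formats in L6-WT and 1.21 (log2) in L6-HGF, and was the 1 of 11 genes of the oxygen sensing list past 2-fold in any comparison. Its probe sets disagreed, with -0.06 and 0.996 between sheets, 0.03 and 1.09 between formats in L6-WT, and 0.20 and 2.22 in L6-HGF. Several of the 9 genes can also be induced by the unfolded protein response and ATF4. Of 20 targets of these pathways, 1 (Trib3, 1.18) was more than 2-fold higher between sheets and none lower, with a median of 0.25. Between formats in L6-WT, 2 were higher (Ddit3, 1.56, and Creld2, 1.02), with a median of 0.50, so this list had a median of the same sign, and its part in the values of the 9 genes was not tested. Egln1 and Egln3 stand in the lists of targets and of sensing genes, and Vldlr in those of HIF and ATF4 targets.

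**Figure D4:**
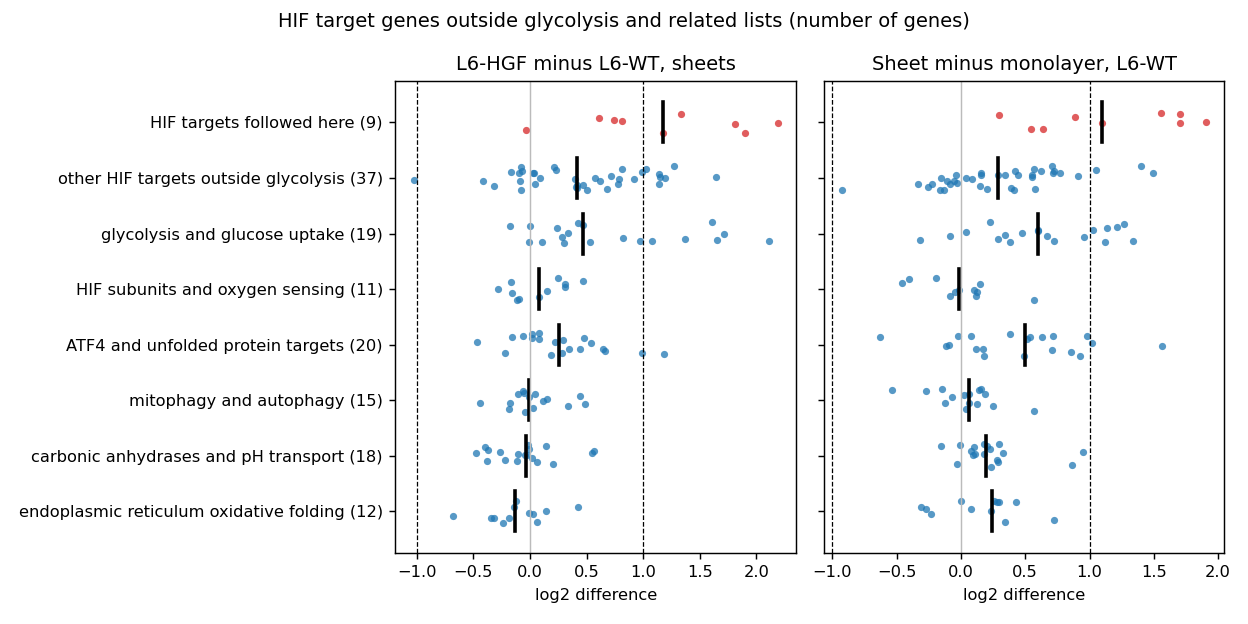
Log2 difference (horizontal axis) between L6-HGF and L6-WT sheets (left) and between sheet and monolayer in L6-WT (right) for the 9 genes and 7 related lists, 1 point per gene, spread vertically for legibility; black bars are medians and dashed lines stand at 2-fold. The medians of the 9 genes are 1.18 and 1.10, those of the other HIF targets 0.41 and 0.28, and those of the sensing genes 0.08 and -0.01.

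The 5 genes nearest to the mean profile of the 9 over the 4 arrays, by Euclidean distance on the log2 scale, were Pdk1 (0.244), Gys1 (0.271), Abcb1a (0.448), Vldlr (0.478) and Ccn3 (0.481). Pdk1 blocks entry of pyruvate into mitochondrial oxidation, and it had -0.56 in the L6-WT monolayer, 0.56 in the L6-WT sheet, -0.73 in the L6-HGF monolayer and 1.93 in the L6-HGF sheet. Gys1, the muscle glycogen synthase, had -0.62, 0.62, -0.63 and 1.91 in the same order. Abcb1a is a drug efflux pump, Vldlr a lipoprotein receptor and Ccn3 a matricellular protein. A likeness over 4 arrays is a description only.

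The cultures also differed in markers of other cell types and in the array controls. Since levels are lost, whether a marker is present or absent could not be seen, and only its differences could. Of 6 fibroblast markers, 3 (Dpt, Mfap5 and Postn) lay past 2-fold on the lower side in L6-HGF as against L6-WT in each format, and 2 (Dpt and Postn) exceeded 2-fold in favour of sheets in each line. None of 5 endothelial or 6 macrophage markers passed 2-fold, and of 6 myoblast markers Itga7 was lower in sheets by -1.14 in L6-WT and -1.13 in L6-HGF (log2). Its 3 probe sets disagreed, with -1.74, 0.20 and -1.88 in L6-WT and -1.44, -0.22 and -1.72 in L6-HGF. The myoblast markers did not share a direction: 2 of 6 were above 0 between formats in L6-WT and 3 of 6 in L6-HGF, against 54.2% and 53.9% of all genes. The mean of the bacterial controls was 0.20 higher in the L6-WT sheet than in its monolayer, 0.12 higher in L6-HGF and 0.0058 higher in the L6-HGF sheet than in the L6-WT sheet. The 3′ probe set minus the 5′ probe set of beta-actin, a sign of RNA quality, ranged from -0.12 to 0.11 over the arrays, with both sheets above both monolayers, and that of GAPDH from -0.02 to 0.08. Control probe sets for rat transcripts differed more: that for 5S rRNA by 0.85 between formats in L6-WT and by -0.68 between sheets, those for beta-actin by -0.55 to -0.35 and those for GAPDH by 0.43 to 0.64 between formats over both lines. The part of these differences in the values of the 9 genes was not tested, and in a bulk culture a larger share of cells with a transcript and more transcript per cell cannot be told apart.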

How the data were processed

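RNA of 4 cultures was hybridized to Affymetrix rat genome arrays, 1 per culture. The deposited log2 values were made by the authors with RMA and normalized to median; the version is not given in the sources used here. In the file, the median of the 4 arrays is 0 for every probe set within 5e-07, so signal levels are lost and no filter on dim probe sets was possible. Of 31099 probe sets, 57 controls were left out. Of the other 31042, 20826 had 1 gene symbol, 436 several and 9780 none in the platform annotation. Gene values are means over probe sets with 1 symbol.

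Log2 differences were taken between single arrays and counted past 2-fold, with no test. limma 3.58.1 (R 4.3.3) gave the test of format. Python 3.11.15 with pandas 2.3.3, numpy 2.4.6 and matplotlib 3.10.9 served for the rest, and the steps were tested on simulated data. The 9 genes and the comparison lists were chosen with earlier results of these data known. All 9 genes are named; list members past 2-fold in any comparison could be named, of which a part is, as could the HIF subunits and hydroxylases whatever their value, and the 5 genes of nearest profile, leaving out genes with only _x_at probe sets; other names are said to be chosen later. Alternatives were quantile normalization, centring or scaling of arrays, other summaries of probe sets and a 1.5-fold threshold, with centring on bacterial controls added after the data were seen.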

Additional observations from a re-analysis of the deposited data

Results flagged for a closer look

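For 4 of the 9 genes and for 5 genes of the related lists that passed 2-fold between L6-HGF and L6-WT, the hHGF effect had opposite signs in monolayers and in sheets. With 1 array per culture this difference was not tested. The share of all genes with opposite signs was not counted, so nothing is read from how many genes showed them. On the log2 scale, the effect in sheets exceeded that in monolayers by 2.85 for Adm, 2.37 for Ankrd37, 1.21 for Bnip3 and 0.82 for Bnip3l. For Ankrd37 and Bnip3 the monolayer values, -0.18 and -0.03, lay within the range of the bacterial controls, so their sign there carries little weight. Among the related genes the difference was 2.21 for Plod2, 1.67 for P4ha1, 1.54 for Pdk1, 1.36 for Hmox1 and 1.17 for Bhlhe40. The monolayer values of Pdk1 and Bhlhe40, -0.17 and -0.03, also lay within the range of the bacterial controls, so the same limit holds for their sign. Adm and Plod2 had the lowest monolayer values, -0.95 and -1.06.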

How the results depend on the processing

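Each culture has 1 array, so the single-array differences could not be paired by replicate and no replicate could be left out. The limma fit, by its term for cells, does compare the formats within each line. Without that term limma also called 0 probe sets, with a smallest limma adjusted p of 0.0625. Before adjustment, 2233 were higher and 3084 lower with a limma p under 0.05. Of 315 values of the 9 genes under the alternatives, 280 moved by less than the SD of the bacterial controls. This share is no measure of robustness, because some alternatives could hardly move a value. The median of 1 or 2 probe sets equals their mean, and adding probe sets with several symbols changed none of the values. Quantile normalization moved 26 of 45 values by that SD or more, and centring on the bacterial controls moved 9 of 45. No value past 2-fold changed its sign, while that of Bnip3 between monolayers, -0.03, became 0.03 under quantile normalization. Quantile normalization, which acts here on centred values and gives every array the same spread, left 3 of the 9 genes past 2-fold between sheets. It lowered the median difference of the hHGF effect between formats to 0.64 (log2), with Ak4 at -0.07 and 2 genes above 1 in place of 5. The format count of limma became 55 of 31042 probe sets, 39 higher and 16 lower. Among them were 4 of the 13 probe sets of the 9 genes: those of Bnip3 and Car9, and 1 of 2 for both Ak4 and Ero1a. The genes were chosen with these arrays in view, so nothing is read from this count. limma on gene means called 2 genes, and none of the 9. With a 1.5-fold threshold, 8 genes were higher between sheets, against 2.20% of all genes, and 2 lower between monolayers, against 1.29%. With the bacterial controls at a mean of 0, 1 gene (Adm, -1.03) passed 2-fold between monolayers, and the median of all genes between formats moved by -0.20 in L6-WT and -0.12 in L6-HGF, with 65 genes higher and 163 lower in L6-WT, against 102 and 70. All 9 genes stayed past 2-fold between formats in L6-HGF under every alternative. Over all genes, quantile normalization gave 31 higher and 63 lower between sheets, against 70 and 135 without it, 163 higher between formats in L6-WT against 102, and 241 lower between formats in L6-HGF against 366. With 4 arrays, precision is limited by their number.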
